A study of Mus musculus with 30 samples.

Results

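The genes described here are *Lmx1b*, *Lhx1*, *Lhx2* and *Lhx9*, which encode LIM-homeodomain transcription factors, *Ldb1* and *Ldb2*, which encode the LIM-domain binding cofactors of these factors, and *En1*, which encodes a homeodomain factor of the ventral limb ectoderm. They were chosen by symbol and are 7 of the 50833 genes in the table of read counts. All 7 symbols were found once. Whole forelimb buds of WT Swiss Albino embryos were profiled by polyA RNA-seq in 30 libraries. Pregnant females were injected intraperitoneally at E10.5 with the solvent DMSO (controls) or with Wnt-C59 (C59), an inhibitor of porcupine, the enzyme that lipid-modifies WNT ligands so that they can be secreted. Forelimb buds were collected 1, 6, 12, 18 and 24 h later, with 3 libraries for each treatment and time, and all embryos were otherwise wild type. By the methods, each library holds the RNA of the forelimb bud pair of an embryo, so the litter and the sex of the embryos add to the spread. Because whole buds were sequenced, fewer cells of a type and less RNA per cell cannot be told apart in any value below.

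Limb buds are patterned along the dorsal-ventral axis by their ectoderm. WNT7A from the dorsal ectoderm turns on *Lmx1b*, the selector gene of dorsal fate, in the underlying mesenchyme, while EN1 keeps *Wnt7a* out of the ventral ectoderm. LMX1B, LHX2 and LHX9 are also known to act redundantly in the distal mesenchyme, where they relay FGF signals from the apical ectodermal ridge to *Shh* and other outgrowth genes. LIM-homeodomain factors work in complexes with LDB proteins, which dimerize and bind the LIM domains, and LIM-only proteins compete for the same cofactors.

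The libraries held between 18188636 and 38974885 assigned reads. Levels are given as CPM, or as FPKM (fragments scaled to gene length and library size) where different genes are compared. CPM are counts scaled to the effective size of each library, a normalized size that differs from its total of assigned reads. The mesenchymal markers fixed for the tissue (*Prrx1*, *Tbx5*, *Twist1* and 7 others) summed to between 2168 and 2432 CPM in the DMSO libraries and the hindlimb markers *Pitx1*, *Tbx4* and *Isl1* to between 10.6 and 22.6 CPM. *Axin2*, a direct target of canonical WNT signaling, was followed as a readout of the drug. Over the successive times its mean CPM in C59 was 87.5%, 25.7%, 36.5%, 88.6% and 93.8% of DMSO. The spread between replicates was widest at 18 h, with a common biological coefficient of variation of 12.5%, against 5.41% to 7.52% at the other times. A gene is said below to pass when its Benjamini-Hochberg adjusted p in edgeR's quasi-likelihood test was under 0.05 over all protein-coding autosomal genes tested at that time, and to be called when its log2 fold change was also beyond 1.

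The promoter-proximal sequences of the LIM-homeodomain genes that passed at 6 h are shown because these are the members that responded first. They are the 250 bases before the RefSeq transcription start (GRCm38.p6), 5′ to 3′ on the strand of the gene. They were searched on both strands for CTTTGA and CTTTGT, the core letters read by TCF/LEF factors, and for TAATTA, the core letters of many homeodomain sites, and matches are in capitals. The windows lie at chr2:33641099-33641348 (minus strand) for *Lmx1b*, chr2:38339031-38339280 (plus strand) for *Lhx2*, chr1:138842445-138842694 (minus strand) for *Lhx9* and chr11:84525535-84525784 (minus strand) for *Lhx1*.
Lmx1b: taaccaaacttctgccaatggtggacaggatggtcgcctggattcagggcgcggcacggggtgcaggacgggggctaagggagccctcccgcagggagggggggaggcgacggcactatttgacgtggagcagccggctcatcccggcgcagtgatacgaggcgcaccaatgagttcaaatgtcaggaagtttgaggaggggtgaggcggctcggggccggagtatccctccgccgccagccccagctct
Lhx2: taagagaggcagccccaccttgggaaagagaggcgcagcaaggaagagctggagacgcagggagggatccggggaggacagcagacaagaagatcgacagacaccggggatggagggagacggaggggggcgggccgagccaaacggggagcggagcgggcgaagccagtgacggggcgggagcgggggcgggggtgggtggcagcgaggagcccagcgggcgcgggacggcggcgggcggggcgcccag
Lhx9: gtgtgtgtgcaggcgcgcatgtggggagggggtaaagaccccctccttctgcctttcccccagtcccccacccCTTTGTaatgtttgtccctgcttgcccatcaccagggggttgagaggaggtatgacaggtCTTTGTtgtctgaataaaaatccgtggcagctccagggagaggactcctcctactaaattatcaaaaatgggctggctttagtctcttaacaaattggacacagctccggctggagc
Lhx1: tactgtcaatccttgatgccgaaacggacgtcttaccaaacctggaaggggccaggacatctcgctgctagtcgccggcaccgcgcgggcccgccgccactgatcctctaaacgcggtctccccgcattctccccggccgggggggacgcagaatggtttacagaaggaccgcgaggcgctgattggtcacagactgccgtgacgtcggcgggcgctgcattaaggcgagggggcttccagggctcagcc
Only the *Lhx9* window held a match, CTTTGT at bases -177 to -172 and again at -117 to -112 from the start. Over the 32817 promoter windows of the same length, 16.5% held CTTTGT, 27.6% held CTTTGA or CTTTGT and 4.85% held TAATTA. The windows of *En1*, *Ldb1* and a second, downstream start of *Lhx2* held none of these letters, and a match or its absence says nothing of binding. The start used for *Lhx9* is inside the gene as GENCODE draws it, since other transcripts begin further upstream.

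In DMSO forelimb buds at 1 h the cofactor gene *Ldb1* was the most highly expressed member per length, at 109 ± 7.99 FPKM (mean ± SD, n = 3). *Lhx9* followed at 45.9 ± 1.31, *Lmx1b* at 39.5 ± 0.58, *Lhx2* at 37.3 ± 1.64 and *Ldb2* at 17.4 ± 0.14 FPKM. *En1* was at 2.76 ± 0.48 FPKM and *Lhx1* at 0.04 ± 0.02 FPKM, a level of 1 to 3 reads per library. Of the neighbours in this order *Lmx1b* and *Lhx2* were the closest, with libraries from 39.2 to 40.2 FPKM for *Lmx1b* and from 35.5 to 38.7 FPKM for *Lhx2*. By 24 h *Lhx2* had moved further below *Lmx1b*, to between 19.9 and 22.6 FPKM against 31.1 to 31.5 FPKM.

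**Figure D1:**
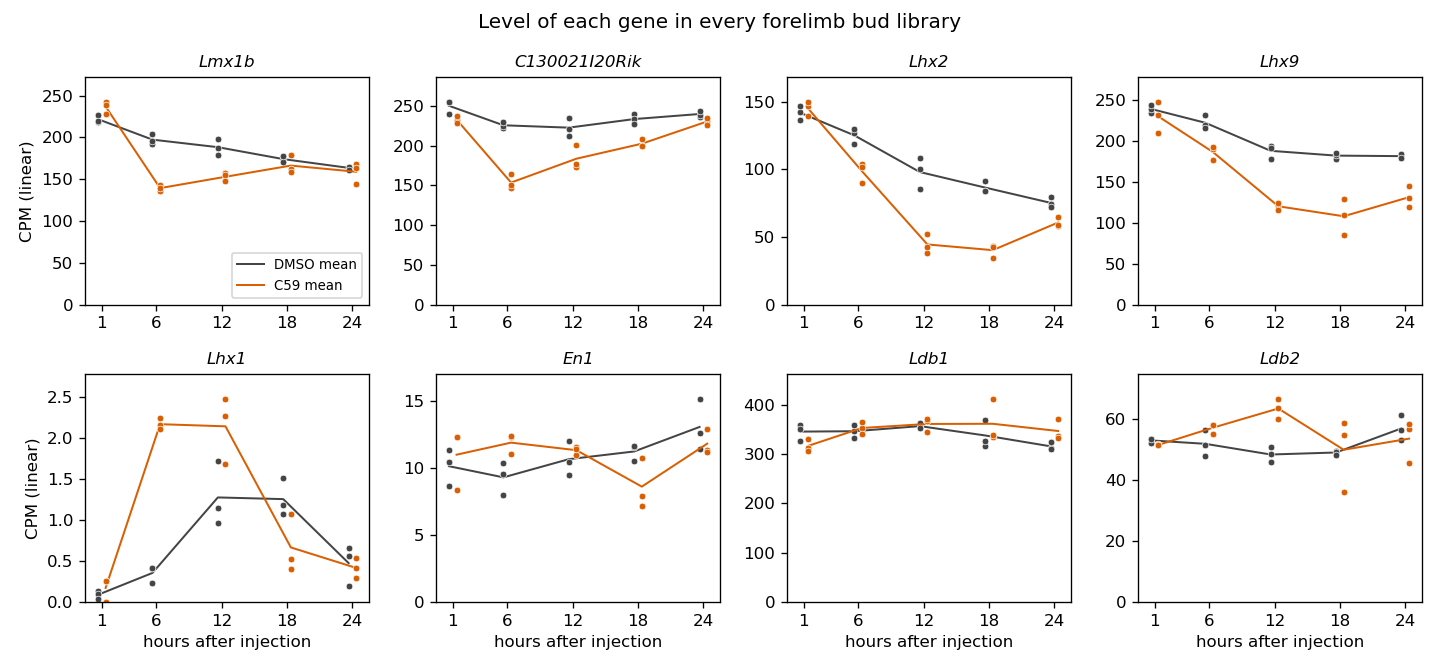
Level of each gene in CPM (linear axis from 0) against hours after injection, with 1 point per library and lines through the group means (grey, DMSO; orange, C59; 3 libraries each; points are offset sideways by treatment). *Lmx1b* was lowest in C59 at 6 h (mean 139 CPM) while *Lhx2* and *Lhx9* were lowest at 18 h (means 40.3 and 108 CPM). *C130021I20Rik* is the noncoding gene that starts beside *Lmx1b*.

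Every LIM-homeodomain member passed at some time after C59, and of the other members *Ldb2* passed, at 12 h. Whether these 2 sets of members differed was not tested. At 6 h, 4 of the 7 members passed, *Lmx1b*, *Lhx2* and *Lhx9* lower and *Lhx1* higher, where 19.6% of all genes tested passed. *Lhx1* reached the minimum count of the filter at 6 h only through its C59 libraries, so its place in this count was fixed by the group in which it was high. At 12 h, 4 of 7 passed, *Lhx2*, *Lhx9* and *Lmx1b* lower and *Ldb2* higher, against a background of 47.5%, so the count at 12 h is close to that of any 7 genes. At 18 h and at 24 h *Lhx2* and *Lhx9* passed, both lower, against backgrounds of 7.08% and 6.44%. These backgrounds depended on single libraries: of 949 genes that passed at 18 h, the count became 190 without DMSO replicate 3 and 2199 without C59 replicate 3, and of 881 at 24 h it became 265 without DMSO replicate 1 and 996 without C59 replicate 1. At 1 h it ran from 184 to 677 (360 as reported) and at 6 h from 1562 to 3125 (2565), with the lowest counts without C59 replicate 1 and the highest without DMSO replicate 3 at 1 h and DMSO replicate 2 at 6 h. At 1 h none of the 6 members tested passed by edgeR (2.75% of all genes did), with *Ldb1* and *Lmx1b* the members under 0.05 before adjustment, and DESeq2 also passed none. Without DMSO replicate 3, *Ldb1* passed at 1 h as lower. Called were *Lhx1* at 6 h (1.17% of all genes were called), *Lhx2* at 12 h (4.95%) and *Lhx2* at 18 h (1.29%), and no member at 1 h (0.283%) or 24 h (0.819%). From 6 h on the members had median log2 fold changes of 0.02, 0.02, -0.37 and -0.14, while that of all genes stayed between 0.00 and 0.02. For reading the library values that follow, the C59 and DMSO libraries did not overlap in 22.1%, 36.8%, 57.2%, 33.9% and 27.8% of all genes tested at the 5 times in order. For reading the gene lists, 11.4%, 25.5%, 3.62% and 3.56% of all genes passed as lower from 6 h on, and 8.2%, 22%, 3.46% and 2.88% as higher.

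*Lmx1b* (ENSMUSG00000038765, GENCODE M21 on GRCm38, chr2:33560965-33640511, minus strand), the dorsal selector gene, fell early, and its groups overlapped from 18 h on. At 1 h its CPM was 219, 227 and 220.1 in DMSO and 229, 243 and 239 in C59, so that all C59 libraries were slightly higher (log2 fold change 0.10 ± 0.04 SE, adjusted p 0.230). At 6 h the DMSO libraries were at 192, 204 and 195 CPM and the C59 libraries at 143, 136 and 139 CPM, with a wide gap between the groups. The log2 fold change was -0.51 ± 0.05 (edgeR, adjusted p 5.81e-06), and the C59 mean was 70.6% of the DMSO mean.

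At 12 h the DMSO libraries held 188, 179 and 198 CPM of *Lmx1b* and the C59 libraries 157, 155 and 147 CPM. The groups remained apart, but the deficit was smaller (log2 fold change -0.30 ± 0.05, edgeR, adjusted p 0.000772), with the C59 mean at 81.2% of DMSO. At 18 h the values were 174, 170.5 and 178 CPM in DMSO and 162, 159 and 179 CPM in C59, and at 24 h 164, 165 and 161 CPM against 169, 164 and 144 CPM. The groups overlapped at both times, and the 95% interval of the log2 fold change was -0.24 to 0.15 at 18 h and -0.18 to 0.11 at 24 h.

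Tested directly, the C59 effect on *Lmx1b* deepened from 1 to 6 h by -0.60 ± 0.06 on the log2 scale (edgeR interaction, adjusted p 2.06e-06, where 13% of all genes passed). It then shrank from 6 to 12 h by 0.20 ± 0.07 (adjusted p 0.0395; 18.1% of genes passed), a change that did not pass without 7 of the 12 libraries in turn (adjusted p up to 0.0955). From 12 to 18 h, when 8.49% of all genes passed, the further change of 0.26 ± 0.10 did not (adjusted p 0.135). It passed under 1 of 17 other settings (adjusted p 0.0358). *Lmx1b* at 12 h in C59 was therefore between its 6 h low and its control level.

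*Wnt7a*, the dorsal ectodermal ligand upstream of *Lmx1b*, did not pass at any time. Its CPM at 6 h was 11.7, 13.1 and 11.7 in DMSO and 13.5, 11.3 and 11.5 in C59, and the groups overlapped. The log2 fold change at 6 h was -0.01, with a 95% interval of -0.24 to 0.22, and at 12 h it was 0.18, with an interval of -0.13 to 0.50. Of the 12 dorsal-ventral signals and ectodermal factors on the list that includes *Wnt7a*, 11 were tested at 6 h and 6 passed, all as lower, and the median log2 fold change was -0.59 against 0.01 for all genes. *Bmp4* (-1.03 ± 0.06), *Dkk1* (-1.07 ± 0.11) and *Msx1* (-2.04 ± 0.05), which are a BMP ligand, a secreted WNT antagonist and a BMP-responsive homeobox gene, were called. *Rspo2*, an R-spondin of the ridge that amplifies WNT signals, was at -0.06 ± 0.08 on the log2 scale (adjusted p 0.631).

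The noncoding gene *C130021I20Rik* (ENSMUSG00000052951, chr2:33641193-33646354, plus strand) begins inside the *Lmx1b* window printed above, 95 bases before the RefSeq start of *Lmx1b*, and is transcribed away from it. GENCODE gives both genes no shared span. In the fit on all genes of the table it was lower in C59 at 6 h by a log2 fold change of -0.56 ± 0.05 (edgeR, adjusted p 1.11e-05) and at 12 h by -0.28 ± 0.06 (adjusted p 0.00460). Its libraries at 6 h held 223, 225 and 229 CPM in DMSO and 164, 146 and 150.1 CPM in C59. From 6 h on its C59 mean was 68.1%, 82.5%, 86.7% and 96.1% of DMSO, beside 70.6%, 81.2%, 95.5% and 97.2% for *Lmx1b*. In DMSO it did not follow the developmental decline of *Lmx1b*, with a 24 h mean at 95.9% of the 1 h mean against 73.8%. The FPKM values were made with the unstranded setting of Cufflinks by the methods, and the strand setting of the counts is not given in the sources used here, so reads near the shared start cannot be assigned with certainty.

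**Figure D2:**
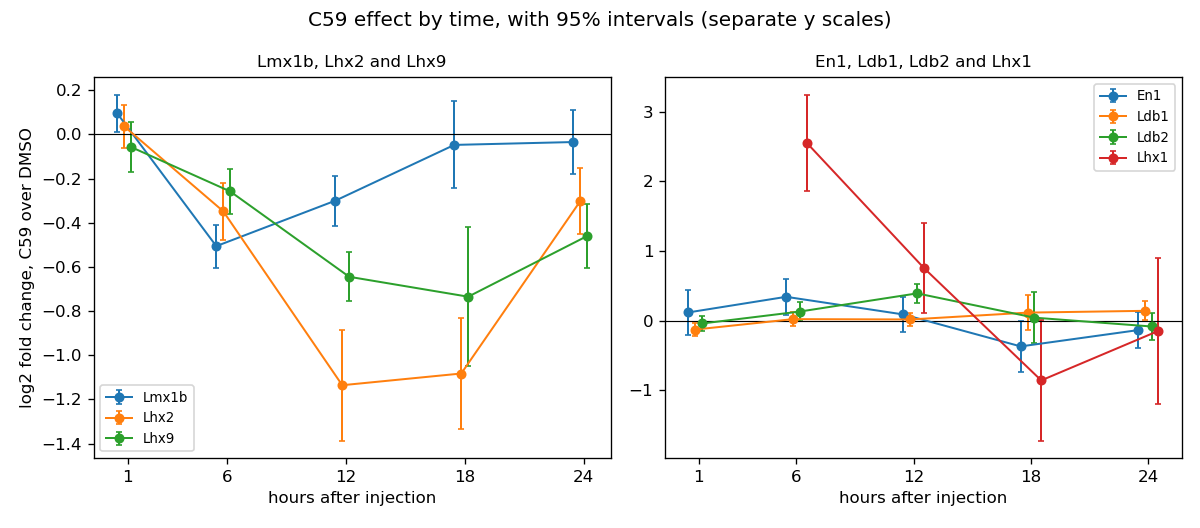
Log2 fold change of C59 over DMSO (edgeR) against hours after injection, with points offset sideways by gene and bars giving the 95% interval (3 libraries per group; both panels have their own y scale). *Lmx1b* was lowest at 6 h (-0.51), *Lhx2* at 12 h (-1.14) and *Lhx9* at 18 h (-0.73), while *Lhx1*, not tested at 1 h, was at 2.55 at 6 h and -0.86 at 18 h.

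*Lhx2* (ENSMUSG00000000247, chr2:38339281-38369733, plus strand) is a LIM-homeodomain gene of the distal mesenchyme. Like *Lmx1b* it was already lower in C59 at 6 h, and its deficit was largest at 12 h. At 1 h it held 143, 147 and 136 CPM in DMSO and 139.6, 147 and 150.0 CPM in C59, with overlapping groups. At 6 h it held 127, 129.7 and 119 CPM in DMSO and 104, 89.6 and 102 CPM in C59, a log2 fold change of -0.35 ± 0.06 (edgeR, adjusted p 0.00112). At 12 h the DMSO libraries held 99.9, 85.4 and 109 CPM and the C59 libraries 38.6, 42.6 and 52.5 CPM. The groups were then far apart, with the C59 mean at 45.5% of DMSO and a log2 fold change of -1.14 ± 0.11 (edgeR, adjusted p 2.19e-05).

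At 18 h *Lhx2* held 91.2, 84.3 and 84.0 CPM in DMSO and 43.4, 34.7 and 42.9 CPM in C59, so the groups were as far apart as at 12 h (log2 fold change -1.08 ± 0.11, edgeR, adjusted p 0.00187). This call rested on the fold threshold: without C59 replicate 2 *Lhx2* passed but was not called. At 24 h the values were 79.3, 74.5 and 72.0 CPM in DMSO and 58.3, 64.9 and 58.998 CPM in C59, still without overlap. The 24 h log2 fold change of -0.30 ± 0.07 passed narrowly (edgeR, adjusted p 0.0232). It stayed between -0.26 and -0.33 without any DMSO replicate or without C59 replicate 3, but the adjusted p was then 0.0523 to 0.136.

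The C59 effect on *Lhx2* changed by -0.38 ± 0.08 on the log2 scale from 1 to 6 h (edgeR interaction, adjusted p 0.00332) and by -0.79 ± 0.14 from 6 to 12 h (adjusted p 0.000901). From 12 to 18 h it changed by 0.06, with a 95% interval of -0.32 to 0.44. From 18 to 24 h it shrank by 0.77 ± 0.13 (adjusted p 0.00394, where 6.96% of all genes passed). *Lhx2* was the only member whose effect passed as shrinking in this last interval. While *Axin2* was back to 88.6% of control at 18 h, *Lhx2* was at 46.6%.

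*Lhx9* (ENSMUSG00000019230, chr1:138825186-138848577, minus strand), the close relative of *Lhx2*, fell with it but less deeply. At 1 h it held 235, 239 and 245 CPM in DMSO and 211, 232 and 249 CPM in C59, and the groups overlapped. At 6 h it held 220.3, 232 and 216 CPM in DMSO and 191, 177 and 193 CPM in C59 (log2 fold change -0.26 ± 0.05, edgeR, adjusted p 0.00202). At 12 h the DMSO libraries were at 194, 179 and 192 CPM and the C59 libraries at 121, 115 and 125 CPM (log2 fold change -0.64 ± 0.05, adjusted p 4.46e-06). The groups were apart at both times, and the effect deepened from 6 to 12 h by -0.39 ± 0.07 (edgeR interaction, adjusted p 0.00104).

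At 18 h *Lhx9* held 179, 183 and 186 CPM in DMSO and 130.0, 109.5 and 85.4 CPM in C59, with a wide spread in C59. The log2 fold change was -0.73 ± 0.14 (edgeR, adjusted p 0.0178). It did not pass without any DMSO replicate or without C59 replicate 2 (adjusted p 0.0640 to 0.0860). From 12 to 18 h the effect on *Lhx9* changed by -0.09, with a 95% interval of -0.42 to 0.24. The 18 h low was therefore not set apart from the 12 h level. At 24 h the DMSO libraries were at 182, 184 and 180.0 CPM and the C59 libraries at 119, 146 and 130.3 CPM, and *Lhx9* had the largest remaining deficit of the members (log2 fold change -0.46 ± 0.07, adjusted p 0.00222). The C59 mean was 72.4% of DMSO, and the change of the effect from 18 to 24 h did not pass (0.27 ± 0.16, adjusted p 0.353).

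Markers of the limb mesenchyme, in which these genes are expressed, moved at the same times. Of the 10 listed, 5 passed as lower and 1 as higher at 6 h, 7 and 1 at 12 h, 3 and 1 at 18 h, and by 24 h 3 were lower. *Twist1* (-1.39 ± 0.04), *Twist2* (-1.37 ± 0.15) and *Msx1* were called at 6 h, and *Prrx2* (-1.11 ± 0.06) joined them at 12 h. The summed level of the list was 2345 to 2432 CPM in DMSO and 1688 to 1705 CPM in C59 at 12 h, and *Tbx5*, which defines the forelimb, was at 256 ± 8.96 CPM in DMSO and 296 ± 36.3 CPM in C59 (mean ± SD, n = 3). Of markers of other cells at 12 h, 6 of 8 macrophage markers passed as higher, 4 of 7 muscle progenitor markers as lower and 2 as higher, and 1 of 6 erythroid markers tested as higher. The part of these changes in the *Lmx1b*, *Lhx2* and *Lhx9* values was not tested.

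**Figure D3:**
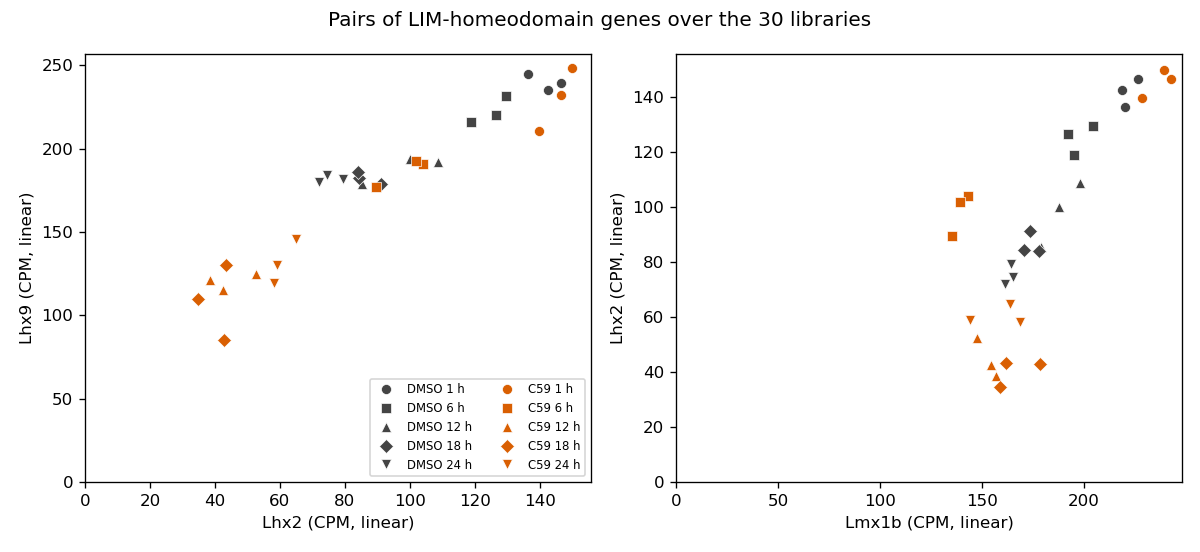
Level of *Lhx9* against *Lhx2* (left) and of *Lhx2* against *Lmx1b* (right) in CPM on linear axes from 0, with 1 point per library (grey, DMSO; orange, C59; the symbol gives the time). *Lhx2* and *Lhx9* lie along a line over both treatments (Pearson r 0.95 on log2 CPM, n = 30), whereas the C59 libraries at 6 h stand off the DMSO points to the left for *Lmx1b* and those at 12 and 18 h below them for *Lhx2* (r 0.68).

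The profiles over all 30 libraries grouped the genes in the same manner. As a description, since the libraries share treatments and developmental time, the Pearson correlation of log2 CPM was 0.95 between *Lhx2* and *Lhx9*, 0.68 between *Lmx1b* and *Lhx2*, and -0.69 between *Lmx1b* and *Lhx1*. Among the 12542 protein-coding autosomal genes of at least 1 CPM on average, the profile of *Lmx1b* was most like those of *Sp5* (0.94), a canonical WNT target, *Tut1* (0.94) and *Gga2* (0.90). *Lhx2* was most like *Rrm2* (0.97), *Mcm10* (0.97) and *Gmnn* (0.97), which encode a ribonucleotide reductase subunit, a replication initiation factor and the licensing regulator geminin. Among the profiles most like *Lhx9* were those of *Cse1l* (0.96) and *Hnrnpk* (0.95). The remaining members had no profile as close: the highest correlations were 0.71 for *En1* (*Stk17b*), 0.83 for *Lhx1* (*Rgs9*), 0.77 for *Ldb1* (*Gramd1a*) and 0.85 for *Ldb2* (*Slc16a7*).

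*Lhx1* (ENSMUSG00000018698, chr11:84518284-84525535, minus strand) is known for its roles in the intermediate mesoderm, kidney and nervous system. At 6 h it was higher in C59, where the other LIM-homeodomain members were lower, and it stayed at low levels throughout. At 1 h the libraries held 3, 2 and 1 reads in DMSO and 0, 5 and 5 in C59, below the filter. At 6 h they held 10, 8 and 4 reads in DMSO (0.415, 0.417 and 0.236 CPM) and 52, 44 and 47 reads in C59 (2.24, 2.16 and 2.12 CPM). The C59 group was far above DMSO (log2 fold change 2.55 ± 0.32, edgeR, adjusted p 0.000111) with the C59 mean at 610.4% of the DMSO mean. The DMSO libraries were under the filter and the C59 libraries brought the gene into the test. With no filter the log2 fold change was 2.55 (adjusted p 5.22e-06). With so few control reads the size of the fold is uncertain, and its 95% interval was 1.86 to 3.25 on the log2 scale.

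At 12 h *Lhx1* had risen in DMSO too, to 1.15, 1.73 and 0.962 CPM, while C59 held 1.69, 2.27 and 2.48 CPM. The groups overlapped by a single DMSO library, replicate 2, and the log2 fold change of 0.76 ± 0.29 did not pass (edgeR, adjusted p 0.0535). It passed under 6 of 15 other settings, 1.02 without DMSO replicate 2 (adjusted p 0.0235), 0.90 without C59 replicate 1 (0.0381), with upper-quartile factors, with a mean of at least 1 CPM and with limma on both FPKM scales, and under the others the adjusted p was up to 0.171. At 18 h *Lhx1* held 1.51, 1.07 and 1.19 CPM in DMSO and 1.08, 0.400 and 0.527 CPM in C59, and at 24 h 0.566, 0.664 and 0.198 CPM against 0.417, 0.543 and 0.291 CPM. Neither difference passed (adjusted p 0.213 and 0.894). The C59 effect changed from 6 to 12 h by -1.80 ± 0.43 on the log2 scale (edgeR interaction, adjusted p 0.00867). Its change from 12 to 18 h, -1.61 ± 0.49, did not pass (adjusted p 0.0571). This change passed under 4 of 17 other settings, among them without C59 replicate 1 of 18 h (0.0169) or DMSO replicate 2 of 12 h (0.0412). In DMSO the mean was highest at 12 h and in C59 at 6 h.

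Markers of nephric and neural tissues, which are known to express *Lhx1*, were followed at 6 h, and apart from them markers of nerve glia. At 6 h 6 of 9 nephric and intermediate mesoderm markers were tested, of which 1 passed, as lower, and their sum was 134 to 146 CPM in DMSO and 121 to 155 CPM in C59. The defining nephric genes were near 0, with *Pax2* at means of 0.16 CPM in DMSO and 0.21 CPM in C59 and *Pax8* at 0.13 and 0 CPM. Of 10 neural tube and neuron markers 4 were tested at 6 h and none passed, and their sum was 23.2 to 25.7 CPM in DMSO and 23.1 to 23.9 CPM in C59. Schwann precursor and crest markers, which mark the glia that enter the bud with its nerves, passed as higher in 4 of 6 tested (*Cdh19* among those called), with sums of 94.2 to 106 CPM in DMSO and 120 to 129 CPM in C59. Their part in the *Lhx1* result was not tested.

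*En1* (ENSMUSG00000058665, chr1:120602418-120607992, plus strand), the ventral ectodermal gene, did not pass at any time. At 6 h it held 10.4, 7.97 and 9.50 CPM in DMSO and 11.01, 12.3 and 12.3 CPM in C59. The C59 libraries were all higher, and the log2 fold change was 0.34 (95% interval 0.08 to 0.60, edgeR, adjusted p 0.0604), which passed under upper-quartile scaling (adjusted p 0.0471), with no filter (0.0485) and without DMSO replicate 1 (0.0344). At 12 h it held 9.48, 12.0 and 10.47 CPM in DMSO and 11.5, 10.97 and 11.4 CPM in C59. At 18 h it held 11.5, 11.6 and 10.48 CPM in DMSO and 7.90, 10.7 and 7.14 CPM in C59, with a log2 fold change of -0.37 (interval -0.74 to 0.00, adjusted p 0.211). The groups overlapped at both later times, and the change of the effect from 12 to 18 h did not pass (-0.46 ± 0.20, adjusted p 0.185) except without C59 18 h replicate 2 (0.0388).

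Markers of the surface ectoderm, the tissue that expresses *En1* and *Wnt7a*, moved most at 12 h, when 9 of 12 passed as higher in C59. Of the 12, 1 passed as higher and 3 as lower at 6 h, 9 as higher and 1 as lower at 12 h, 6 and 1 at 18 h, and 3 and 0 at 24 h. Their summed level was 365 to 398 CPM in DMSO and 468 to 641 CPM in C59 at 12 h, and 358 to 380 CPM against 449 to 505 CPM at 18 h. *Krt5*, a basal keratin, rose most at 12 h (0.79 ± 0.10), and *Tfap2c*, an ectodermal transcription factor, was called as lower (-1.56 ± 0.22). The part of the ectoderm markers in the *En1* and *Wnt7a* values was not tested.

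Of the cofactor genes, *Ldb2* passed as higher at 12 h and *Ldb1* did not pass. *Ldb1* (ENSMUSG00000025223, chr19:46031570-46045214, minus strand), the LDB gene used in most tissues, was between 306 and 412 CPM in all 30 libraries and did not pass at any time. At 12 h it held 363, 354 and 353 CPM in DMSO and 368, 344 and 371 CPM in C59, with a 95% interval of the log2 fold change of -0.07 to 0.11. At 1 h it held 359, 352 and 326 CPM in DMSO and 311, 306 and 331 CPM in C59, with an overlap of DMSO replicate 3 and C59 replicate 3. The log2 fold change was -0.13 ± 0.05 (edgeR, adjusted p 0.170), and -0.17 without DMSO replicate 3 (adjusted p 0.0309). At 24 h the C59 libraries, at 371, 337 and 332 CPM, were all above DMSO, at 313, 311 and 324 CPM, and the difference did not pass (log2 fold change 0.14 ± 0.06, edgeR, adjusted p 0.202). *Pprc1* on the opposite strand shares 177 exon bases with *Ldb1*, so a small part of its reads is uncertain.

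*Ldb2* (ENSMUSG00000039706, chr5:44472132-44799680, minus strand) passed at 12 h, as higher. At that time the libraries held 50.9, 45.9 and 48.5 CPM in DMSO and 60.1, 66.7 and 63.8 CPM in C59. The groups were apart, with a log2 fold change of 0.39 ± 0.06 (edgeR, adjusted p 0.000513). At 6 h it held 56.4, 51.6 and 47.9 CPM in DMSO and 58.3, 55.3 and 58.1 CPM in C59 and at 18 h 49.7, 49.2 and 48.4 CPM against 58.9, 54.9 and 36.1 CPM. The groups overlapped at both times, at 18 h through C59 replicate 3, without which the log2 fold change was 0.23 (adjusted p 0.0470). At 6 h it did not pass (0.13, adjusted p 0.171) except without DMSO replicate 1 (0.20, adjusted p 0.0473). The change of the C59 effect on *Ldb2* from 6 to 12 h did not pass (0.26 ± 0.09, edgeR interaction, adjusted p 0.0587). It passed under 4 of 17 other settings. Nor did the change from 12 to 18 h pass (-0.35 ± 0.185, adjusted p 0.283), so a response limited to 12 h was not shown. *Ldb2* is known from endothelial cells, and 5 of 10 endothelial markers also passed as higher at 12 h and none as lower. Their sum was 373 to 413 CPM in DMSO and 466 to 519 CPM in C59, with *Cdh5* at 105 ± 5.40 and 138 ± 8.38 CPM, and their part in the *Ldb2* result was not tested.

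**Figure D4:**
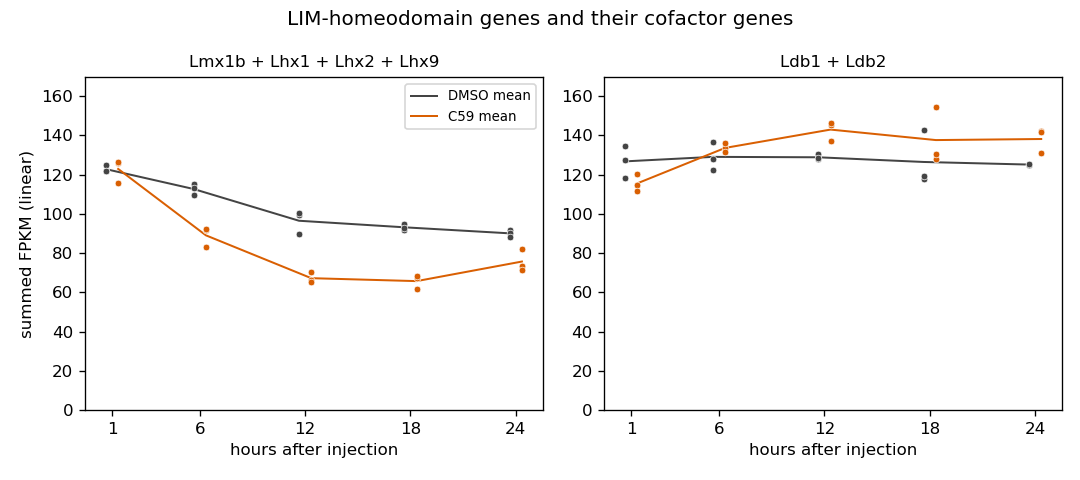
Summed FPKM of *Lmx1b*, *Lhx1*, *Lhx2* and *Lhx9* (left) and of *Ldb1* and *Ldb2* (right) against hours after injection, on linear axes from 0 with the same scale, with 1 point per library and lines through the group means (grey, DMSO; orange, C59). The LIM-homeodomain sum was 67.2 FPKM in C59 and 96.5 FPKM in DMSO at 12 h, while the LDB sum was 143 and 129 FPKM.

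On the FPKM scale the summed level of the 4 LIM-homeodomain genes was 123 ± 1.76 in DMSO and 123 ± 6.00 in C59 at 1 h (mean ± SD, n = 3). At 12 h it was 96.5 ± 6.00 in DMSO and 67.2 ± 2.90 in C59, and the libraries did not overlap. The ratio of this sum to that of *Ldb1* and *Ldb2* went in DMSO from 0.97 ± 0.05 at 1 h to 0.72 ± 0.02 at 24 h. In C59 it was successively 1.06 ± 0.06, 0.67 ± 0.05, 0.47 ± 0.01, 0.48 ± 0.04 and 0.55 ± 0.03. The make-up of the sum also differed: *Lmx1b* was 31.6% to 35.5% of it in DMSO at all times, but 28.6% ± 0.14 at 6 h and 48.3% ± 3.58 at 18 h in C59. *Lhx2* was 17.0% ± 1.38 at 18 h in C59 and 25.3% ± 1.85 in DMSO. These sums were described and not tested.

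Over normal development, from 1 to 24 h in DMSO, 5 of the 6 members tested passed, where 59.3% of all genes did. *Lhx2* had a log2 fold change of -0.92 ± 0.05 (edgeR, adjusted p 9.95e-10), *Lmx1b* of -0.44 ± 0.04 and *Lhx9* of -0.40 ± 0.04. *En1* rose by 0.36 ± 0.13 (adjusted p 0.0267) and *Ldb1* was lower (-0.13 ± 0.05, adjusted p 0.0243), but neither held throughout. *En1* did not pass when replicate 2 of 1 h (adjusted p 0.117) or replicate 1 of 24 h (0.137) was left out. *Ldb1* did not pass without replicate 1 or 2 of either time (0.0688 to 0.0717), with upper-quartile factors (0.0739) or with the spread shared over all libraries (0.109), that is in 6 of 11 settings. In C59 the log2 fold change was -1.24 ± 0.07 for *Lhx2*, -0.79 ± 0.08 for *Lhx9* and -0.56 ± 0.07 for *Lmx1b*, all of which passed (54.1% of all genes did), and *En1*, *Ldb1* and *Ldb2* did not pass. *Ldb1* (0.15) then passed as higher without C59 24 h replicate 2 or 3 or with upper-quartile factors, and *Ldb2* without C59 24 h replicate 1. In DMSO *Lmx1b*, *Lhx2* and *Lhx9* were each lowest at 24 h, at 73.8%, 53.1% and 75.9% of their 1 h means. In C59 *Lhx2* and *Lhx9* were lowest at 18 h, at 27.7% and 47.0% of their 1 h means, and at 24 h they were at 41.8% and 57.2%.

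Among the other genes of the LIM network, *Isl1*, *Lmx1a*, *Lmo2*, *Lmo3*, *Lmo4* and *Ssbp2* passed at 12 or 18 h. At 6 h *Lmo3* passed as lower (-0.64 ± 0.19, edgeR, adjusted p 0.0323) and *Lmo4* as higher (0.17 ± 0.06, adjusted p 0.0409). At 24 h *Lmo3* passed as lower (-0.57 ± 0.15, adjusted p 0.0456) and *Ssbp4* as higher (0.31 ± 0.07, adjusted p 0.0246). Of 8 other LIM-homeodomain genes (*Lmx1a*, *Lhx3*, *Lhx4*, *Lhx5*, *Lhx6*, *Lhx8*, *Isl1* and *Isl2*), 4 were expressed above the filter. None of them passed at 6 h, and *Lhx6* and *Isl2* did not pass at any time. *Isl1*, known for its role in hindlimb initiation, was called as lower at 12 h (-1.39 ± 0.25, edgeR, adjusted p 0.00119) and 18 h (-1.86 ± 0.22, adjusted p 0.00271), and its mean was 1.51 CPM in C59 against 3.97 CPM in DMSO at 12 h. *Lmx1a*, the relative of *Lmx1b*, was at 2.64 CPM in DMSO and 1.64 CPM in C59 at 6 h (-0.69 ± 0.25, adjusted p 0.0709) and passed as higher at 18 h (0.68 ± 0.17, adjusted p 0.0454). Of the LIM-only and LDB partner genes, 7 of 8 were tested and 4 passed at 12 h, 2 in each direction.

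Among these partners, *Lmo4*, a LIM-only gene whose product binds LDB proteins, was higher in C59 at 12 h, at 248 CPM against 146 CPM in DMSO (log2 fold change 0.76 ± 0.05, edgeR, adjusted p 2.37e-06). *Lmo2* was lower at the same time, at 24.5 CPM against 47.1 CPM (-0.94 ± 0.09), and *Lmo3* was called as lower at 18 h (-1.20 ± 0.20, adjusted p 0.0115). *Ssbp3*, which encodes a single-stranded DNA binding partner that stabilizes LDB1, was at 672 CPM in DMSO and 641 CPM in C59 at 12 h and did not pass (-0.07 ± 0.04, adjusted p 0.223). *Ssbp2*, of the same family, passed as higher (0.50 ± 0.04). The summed level of the list was 1052 to 1131 CPM in DMSO and 1158 to 1175 CPM in C59 at 12 h.

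The pathways upstream and downstream of the members were followed with the same test. Of 10 canonical WNT feedback genes, 10 passed as lower at 6 h (6 of them called), and 9, 2 and 1 at the later times. The median log2 fold change of this list from 6 h on was -1.05, -1.27, -0.21 and 0.01, beside -0.51, -0.30, -0.05 and -0.03 for *Lmx1b*. The list median was thus lowest at 12 h and *Lmx1b* at 6 h, but the list was split. *Axin2* (-1.97 at 6 h and -1.45 at 12 h), *Sp5*, *Lgr5*, *Rnf43* and *Znrf3* had a lower log2 fold change at 6 h than at 12 h. The other genes of the list, such as *Tcf7* (-0.91 and -1.80), had the lower log2 fold change at 12 h. Between these times *Znrf3* (-0.57 ± 0.11 and -0.51 ± 0.075) and *Nkd1* (-1.07 ± 0.06 and -1.09 ± 0.06) changed little. Of the 13 ridge FGF relay genes, 7 passed as lower at 6 h, 11 of the 12 tested at 12 h, and 7 and then 1 later. From 6 h on, *Spry4* at 6 h (0.22 ± 0.06) and *Spry1* at 24 h (0.30 ± 0.08), both FGF feedback genes, passed as higher. Already at 1 h *Fgf4* passed as higher (0.78 ± 0.18, edgeR, adjusted p 0.0338), and *Fgf10* (-0.34 ± 0.07) and *Grem1* (-0.27 ± 0.06) as lower. *Fgf8*, the main ridge ligand, had log2 fold changes of -1.59 ± 0.08 at 6 h and -3.17 ± 0.20 at 12 h, and *Shh* of -1.47 ± 0.11 and -6.09 ± 0.32. From 6 h on the median log2 fold change of the FGF relay list was -0.26, -1.38, -0.48 and 0.12, beside -0.35, -1.14, -1.08 and -0.30 for *Lhx2*. Whether the lists and the members moved together beyond what all genes did was not tested.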

How the data were processed

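The series holds 30 libraries, 3 replicates in each of 10 groups. The authors trimmed reads with Cutadapt 1.16, aligned them with STAR 2.7.0e to mm10 and deposited a table of read counts per gene, without the sex chromosomes and the mitochondrial genome, and a table of FPKM values made with Cufflinks 2.2.1. Both tables were joined by Ensembl identifier, and the map of table columns left out no column of per-sample values. Genes were annotated with GENCODE M21, which matched 50628 of the 50833 genes, and promoter windows came from RefSeq (GRCm38.p6), which gave none for *Ldb2*.

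For each time the protein-coding autosomal genes that passed filterByExpr (minimum count 10, minimum total 15) were fitted over 6 libraries with edgeR 4.0.16 (R 4.3.3), TMM factors and the quasi-likelihood F test, with Benjamini-Hochberg adjustment over all genes tested. Changes of the C59 effect between successive times were interaction terms over 12 libraries. Every SE is that of the fitted log2 fold change. Depth was 18188636 to 38974885 counts (median 21597120), and no 2 replicates agreed within sampling noise (30 pairs, chi-square over its degrees of freedom at 3.49 to 46.6). The fit was tested on simulated data. The alternatives were DESeq2 1.42.0, upper-quartile factors, other filters, a shared spread over 30 libraries, limma 3.58.1 on log2(FPKM + 1) or log2(FPKM + 0.1), a replicate block and each library left out.

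The members and gene lists were chosen with earlier results of these data known. The text names all 7 members, the called or extreme genes of each list, *Wnt7a*, *Axin2*, defining markers, the 3 genes most like a member (for *Lhx9* and in 1 list a gene is not reported here) and overlapping genes. *Rspo2*, *Lmx1a*, *Twist1*, *Fgf8*, *Shh*, *Lmo2* and the *Ssbp* genes that meet none of these conditions were named after their values were seen.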

Additional observations from a re-analysis of the deposited data

Results flagged for a closer look

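In 7 instances the C59 effect on a member differed between successive times by the interaction test (edgeR, Benjamini-Hochberg adjusted p under 0.05 over all genes). From 1 to 6 h the log2 effect on *Lmx1b* changed by -0.60 (adjusted p 2.06e-06) and that on *Lhx2* by -0.38 (adjusted p 0.00332), with all 3 C59 libraries below all DMSO libraries at 6 h for both genes. From 6 to 12 h it changed by -0.79 for *Lhx2*, by -0.39 for *Lhx9*, by -1.80 for *Lhx1* and by 0.20 for *Lmx1b*. The effects on *Lmx1b* and *Lhx2* thus moved in opposite directions over the same interval. The *Lmx1b* change did not pass under 8 of 17 other settings (adjusted p up to 0.0955). From 18 to 24 h the effect on *Lhx2* changed by 0.77. Whether the effects on different members differed from each other was not tested. Successive intervals share the libraries of the time between them.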

How the results depend on the processing

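Of the 7 members' C59 effects, 474 of 508 values under other settings kept their direction and their side of the threshold, as did 430 of 476 changes of the effect and 119 of 132 developmental changes. Passing counts moved as follows, and the cause was not tested unless stated. With the spread shared over 30 libraries 1 member passed at 24 h (2 as reported), the effect of 1 member changed from 1 to 6 h (2) and that of 2 members from 12 to 18 h (0). DESeq2 gave 1 from 12 to 18 h. With limma 1 member passed at 24 h, on log2(FPKM + 1) as on log2(FPKM + 0.1), and with log2(FPKM + 1) 0 were called at 6 h, since the pseudocount is larger than any *Lhx1* value. Over the settings that kept all libraries 3 to 5 members passed at 6 h, 4 to 5 at 12 h and 3 to 5 changed from 6 to 12 h. With 1 library left out, 0 to 1 members passed at 1 h, 4 to 6 at 6 h and 4 to 5 at 12 h, 1 to 2 were called at 12 h, 0 to 1 were called and 1 to 3 passed at 18 h, 1 to 2 passed at 24 h, 2 to 3 changed from 1 to 6 h, 3 to 5 from 6 to 12 h and 0 to 1 from 12 to 18 h, and 3 to 6 changed over development in DMSO and 3 to 4 in C59. *Lhx9* at 6 h did not pass with the shared spread (adjusted p 0.0634).

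Reversals concerned values near 0 that did not pass. These were *Lhx1* at 24 h with limma (0.005 with FPKM + 1 and 0.0523 with FPKM + 0.1), and the change of the effect on *Ldb1* from 6 to 12 h (0.0582 with upper-quartile factors, 0.0038 with no filter) and from 18 to 24 h (-0.0047 with upper-quartile factors) and on *Lmx1b* from 18 to 24 h (-0.0173 with upper-quartile factors, -0.0038 with no filter). With 1 library left out, ranges that crossed 0 were -0.115 to 0.0025 for *Lhx9* at 1 h, -0.0062 to 0.0533 for *Ldb1* at 6 h, -0.0928 to 0.229 for *Ldb2* at 18 h, and at 24 h -0.0857 to 0.0386 for *Lmx1b*, -0.534 to 0.224 for *Lhx1* and -0.139 to 0.0149 for *Ldb2*. For changes of the effect they were -0.0168 to 0.0446 for *Ldb1* from 6 to 12 h, -0.0317 to 0.192 for *Lhx2*, -0.233 to 0.0535 for *Lhx9* and -0.0076 to 0.176 for *Ldb1* from 12 to 18 h, and -0.0492 to 0.0698 for *Lmx1b* and -0.0538 to 0.124 for *Ldb1* from 18 to 24 h. The change of *En1* from 1 to 24 h in C59 ran from -0.0493 to 0.203.

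The replicate numbers did not pair the samples: same-number correlations of deviations ran from -0.21 to 0.14, and 1 of 15 was over 0.1. The replicate block moved the count of all genes passing at 18 h from 949 to 478 and changed no call of a member, with 4 members passing at 6 h and 4 at 12 h. The shared spread raised that 18 h count to 3855. Depth limits *Lhx1*, at 0 to 54 reads per library.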
